A study of Homo sapiens with 4 samples.

Results

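The collagen genes were taken as all protein-coding genes whose symbol is COL, a number, A and a number, on chromosomes 1 to 22 of the RefSeq table of GRCh38.p14. The rule found 42 genes of 19122 protein-coding genes on these chromosomes, spread over 16 chromosomes. Their open chromatin was read from ATAC-seq peak lists of 786-O, an established human renal carcinoma line without functional VHL. ATAC-seq uses a transposase that cuts and tags DNA where chromatin is accessible. The WT control group had 2 libraries of negative control cells, which carry Cas9 and a wild-type DEK genotype. The DEK KO group had 2 libraries of Cas9 cells in which guide RNAs against DEK had been delivered by virus and single cells had been sorted. Per the labels, the Cas9 line was itself a clone, both groups carry Cas9, and growth conditions were the same. Separate clones or cultures behind the libraries of a group are not stated in the labels. P-values across libraries therefore reflect nothing beyond the spread of these 4 samples, and that spread may be purely technical. DEK is a DNA-binding histone chaperone, and its product is not measured by peaks, so the knockout labels were not checked here.

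Collagens are secreted or membrane proteins whose chains wind into a triple helix, and they form much of the extracellular matrix. Fibrillar collagens make the load-bearing fibres, collagen IV makes the network of basement membranes such as those under the tubules and in the glomerulus of the kidney, and fibril-associated collagens decorate the surface of fibres. Other families form beaded filaments, anchoring fibrils or membrane-bound chains, and multiplexins carry long non-helical stretches. An open gene start is a place where chromatin is accessible near a promoter and does not measure RNA.

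On chromosomes 1 to 22 and X, the control lists had 89563 and 90409 peaks and the DEK KO lists had 102760 and 99508. They hold no read counts, so the depth is unknown. Peaks that overlapped by at least 1 bp across lists were merged into 138467 regions. Of these, 653 lay in a collagen window, defined as the gene span plus 50 kb on each side, and 27 of them lay in the windows of 2 collagen genes. Windows held between 3 regions at COL3A1 and 38 at COL4A2, with a median of 14. At least 1 region called in all 4 lists was found for 40 of the 42 genes, the exceptions being COL3A1 and COL6A6. Of the markers checked, starts were open in all lists for 7 of 8 renal genes, among them PAX8 and PAX2. They were open for 2 of 8 fibroblast genes, 0 of 5 endothelial genes and 1 of 5 blood genes (SPI1). The start of CA9, a carbonic anhydrase used as a marker of clear cell renal carcinoma, was open in no list.

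A minority of collagen genes had an open start in 786-O, with 17 or 18 genes open in a control library and 16 or 17 in a DEK KO library. A start was called open in a library when that library had a peak within 1 kb of it. Starts without a peak are called closed here, although a missing peak does not show that chromatin is closed. RefSeq promoter tables list 41 starts for 30 of the genes. For the other 12 genes either gene end was used, since the tables give no strand for them. By this measure 14 of the 42 genes (33.3%) were open in all 4 lists, against 59.9% of all protein-coding genes. A further 21 of the 42 were open in no list, against 31.8% of all protein-coding genes. The other 7 of the 42 were open in 1 to 3 lists, against 8.34% of all protein-coding genes. Among genes with a listed start the count was 8 of 30 (26.7%, against 62.6% of all such genes), and among the others it was 6 of 12 (against 49.7%).

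The promoters of 7 genes with listed starts are shown because they span the range of states at collagen starts. COL7A1 encodes the chain of anchoring fibrils, and COL12A1 encodes a fibril-associated chain; both were open in every library. COL4A1 encodes a main chain of basement membranes, and its open region was among the weakest. COL18A1 encodes the multiplexin from which endostatin is released, and its 2 listed starts are shown. COL21A1 encodes a fibril-associated chain and was open at an internal start with few CpG dinucleotides. COL15A1, a multiplexin, and COL8A2, a network-forming chain, were closed in every library although their starts are rich in CpG. Each sequence is from RefSeq (GRCh38.p14), 250 bases before to 50 bases after the start, written 5′ to 3′ on the gene's strand. Capitals mark any match to 6 short motifs on either strand.
COL7A1 (chr3:48595280-48595579, minus strand): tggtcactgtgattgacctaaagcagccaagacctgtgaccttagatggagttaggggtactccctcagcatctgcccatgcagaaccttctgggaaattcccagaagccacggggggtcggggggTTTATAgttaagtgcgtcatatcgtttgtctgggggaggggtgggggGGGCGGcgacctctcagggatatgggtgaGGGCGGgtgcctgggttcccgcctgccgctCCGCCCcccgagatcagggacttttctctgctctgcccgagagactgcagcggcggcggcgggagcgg
COL12A1 (chr6:75206004-75206303, minus strand): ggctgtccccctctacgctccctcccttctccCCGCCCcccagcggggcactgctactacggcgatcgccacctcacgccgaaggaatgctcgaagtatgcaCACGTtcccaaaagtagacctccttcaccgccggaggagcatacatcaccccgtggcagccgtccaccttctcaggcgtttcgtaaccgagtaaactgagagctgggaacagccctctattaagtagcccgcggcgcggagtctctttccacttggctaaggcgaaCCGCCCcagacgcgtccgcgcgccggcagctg
COL4A1 (chr13:110307108-110307407, minus strand): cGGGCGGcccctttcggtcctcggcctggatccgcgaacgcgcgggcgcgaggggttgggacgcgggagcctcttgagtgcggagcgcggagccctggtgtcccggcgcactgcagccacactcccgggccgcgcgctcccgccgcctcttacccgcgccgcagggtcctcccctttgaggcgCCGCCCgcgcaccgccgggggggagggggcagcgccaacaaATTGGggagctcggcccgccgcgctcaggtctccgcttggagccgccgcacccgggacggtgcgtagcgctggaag
COL18A1 upstream start (chr21:45404915-45405214, plus strand): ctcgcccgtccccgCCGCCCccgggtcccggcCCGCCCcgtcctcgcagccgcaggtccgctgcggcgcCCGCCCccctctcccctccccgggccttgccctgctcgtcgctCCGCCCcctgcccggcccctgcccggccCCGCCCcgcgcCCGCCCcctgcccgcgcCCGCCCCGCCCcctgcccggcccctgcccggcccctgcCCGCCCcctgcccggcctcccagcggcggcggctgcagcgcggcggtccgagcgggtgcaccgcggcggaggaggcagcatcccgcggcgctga
COL18A1 downstream start (chr21:45455272-45455571, plus strand): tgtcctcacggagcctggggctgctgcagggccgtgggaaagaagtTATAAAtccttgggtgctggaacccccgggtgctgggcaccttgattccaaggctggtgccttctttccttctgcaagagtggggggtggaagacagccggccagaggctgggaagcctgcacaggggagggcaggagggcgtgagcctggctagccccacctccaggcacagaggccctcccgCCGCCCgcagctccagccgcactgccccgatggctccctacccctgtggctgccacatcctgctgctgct
COL21A1 internal start (chr6:56091613-56091912, minus strand): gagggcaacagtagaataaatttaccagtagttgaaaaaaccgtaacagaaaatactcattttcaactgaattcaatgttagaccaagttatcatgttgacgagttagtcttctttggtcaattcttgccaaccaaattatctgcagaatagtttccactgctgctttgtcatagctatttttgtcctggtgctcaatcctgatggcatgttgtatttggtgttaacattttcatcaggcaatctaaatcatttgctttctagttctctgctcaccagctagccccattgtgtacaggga
COL15A1 (chr9:98943657-98943956, plus strand): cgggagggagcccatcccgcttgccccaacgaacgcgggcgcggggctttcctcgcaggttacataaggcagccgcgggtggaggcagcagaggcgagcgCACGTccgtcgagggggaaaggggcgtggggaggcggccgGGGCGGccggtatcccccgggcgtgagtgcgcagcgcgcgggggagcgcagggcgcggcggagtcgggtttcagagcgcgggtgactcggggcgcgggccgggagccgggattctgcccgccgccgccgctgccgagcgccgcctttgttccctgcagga
COL8A2 (chr1:36125173-36125472, minus strand): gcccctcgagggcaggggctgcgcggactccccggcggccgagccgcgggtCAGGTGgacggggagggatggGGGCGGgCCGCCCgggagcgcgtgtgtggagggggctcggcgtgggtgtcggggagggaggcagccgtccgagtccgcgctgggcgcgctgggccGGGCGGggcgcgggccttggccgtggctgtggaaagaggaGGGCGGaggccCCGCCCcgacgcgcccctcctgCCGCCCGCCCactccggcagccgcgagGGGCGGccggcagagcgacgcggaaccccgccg

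The motifs searched on both strands were those of core promoters, namely the element TATAAA, the element known as the CCAAT box, and GGGCGG as the GC box. They also included TGACTCA for AP-1, the hypoxia response core with the letters ACGTG, and the form of E-box spelled CACCTG. None of these contains another, but neighbouring matches may share letters. TATAAA was found at 8 of 41 collagen starts (19.5%, against 9.51% of all listed starts), GGGCGG at 23 (56.1%, against 56.6%) and CCAAT at 12 (29.3%, against 34.4%). ACGTG was found at 7 (17.1%, against 22.9%), CACCTG at 5 (12.2%, against 20.1%) and TGACTCA at 0 (against 3.98%). In the sequences printed, the COL7A1 promoter has TATAAA on the reverse strand with its first base at 124 bases before the start, and GGGCGG at 77, 48 and 18 bases before it. The upstream COL18A1 promoter holds 9 matches to GGGCGG and a GC content of 86.7%, while the open COL21A1 promoter has no match and a GC content of 38%. These matches describe letters in a window and not bound sites.

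Starts rich in CpG were mostly open in the whole annotation, while most CpG-rich collagen starts were closed. In all listed starts, those with 25 or more CpG dinucleotides in the 300 bases were open in all 4 lists in 77.8% (6894 of 8866). The collagen starts of that class were open in 3 of 15 (20%), those of COL12A1, COL4A1 and COL4A2. With 15 to 24 CpG, 3 of 11 collagen starts (27.3%) were open against 75.2% of all starts. With 5 to 14 the figures were 1 of 6 (16.7%) and 38.4%, and with 0 to 4 they were 1 of 9 (11.1%) and 15.6%. Genes with a CpG-rich start open in no list were COL5A1, COL11A2, COL8A2, COL9A2, COL23A1, COL25A1, COL15A1 and COL26A1. The classes of CpG content were set after the files were seen, and starts of 1 gene share sequence, so no test was made.

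**Figure D1:**
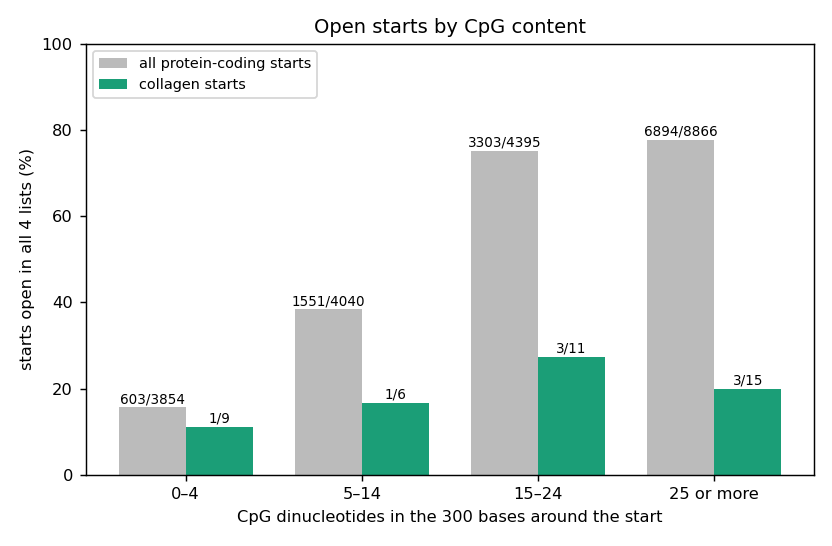
Share of listed gene starts open in all 4 lists (y axis, percent), by the number of CpG dinucleotides in the 300 bases around the start (x axis); grey bars are all protein-coding starts and green bars collagen starts, with the counts above them. The collagen bar at 25 or more CpG is at 20%, and the grey bar beside it is at 77.8%.

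Of the 11 fibrillar collagens, 4 were open in all lists. COL1A1, which encodes the main chain of collagen I, had one of the strongest collagen starts. Its region (chr17:50200123-50201117, 514 bp from the gene end of higher coordinate) stood at percentiles of 93.7 (WT control replicate 1), 96.8 (WT control replicate 2), 98.8 (DEK KO replicate 1) and 95.5 (DEK KO replicate 2). A percentile here is the share of a list's peaks with a lower deposited −log10 p. On this scale both DEK KO values lay above both controls in 31.1% of all regions called in the 4 lists, and below them in 19.2%, so the scale itself leans toward DEK KO. The genotypes overlapped. COL1A2, which encodes the partner chain of collagen I, was weaker, with percentiles of 47.7, 44.2, 48.3 and 41.2 in the same library order. COL27A1, a fibrillar chain of cartilage, had a region 867 bp from its listed start with percentiles of 70.5, 73.4, 76.0 and 78.9. Both DEK KO percentiles of COL27A1 lay above both controls, but its ranks among the regions shared by all lists, 58.4 and 61.9 against 61.2 and 67.0, overlapped. The strongest of these regions belonged to COL5A2 by the rule, with percentiles of 98.1, 98.3, 97.7 and 99.5. COL5A2 encodes a chain of collagen V, which regulates fibre diameter. That region (chr2:189440644-189442085) also covers the start of WDR75, a ribosome biogenesis gene, so the assignment of this peak to either gene cannot be told apart.

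COL11A1, a cartilage collagen chain, had a peak within 1 kb of its start in DEK KO replicate 1 alone, at percentile 23.1. The other 6 fibrillar genes had no peak at a start or, where no start is listed, at either end. They were COL2A1 (the main collagen of cartilage), COL3A1 (a fibrillar collagen of vessels and skin), COL5A1, COL5A3, COL11A2 and COL24A1.

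Basement membrane and network collagens were open in all lists in 3 of 7 genes. COL4A1 and COL4A2 are neighbours on opposite strands with starts 127 bp apart, and they shared 1 open region (chr13:110307761-110308301). It lay inside COL4A2, 477 bp from the COL4A2 start. Its percentiles were 4.50 and 12.0 in the controls and 18.9 and 20.3 in DEK KO, and the highest fold enrichment was 2.83, in DEK KO replicate 2. Both DEK KO values lay above both controls, at a low level in every library. COL8A1, a chain of a network-forming collagen, was open in all lists at percentiles of 45.7, 46.4, 39.9 and 52.4, with overlapping genotypes.

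COL4A3 and COL4A4, the chains mutated in Alport syndrome, also share a promoter, with starts 419 bp apart. Their region was called in WT control replicate 2 alone, at percentile 30.5. COL10A1, the collagen of hypertrophic cartilage, had peaks at its listed starts in WT control replicate 1 and DEK KO replicate 1. COL8A2 was closed in every list.

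Among the beaded filament and anchoring fibril collagens, only COL7A1 of 6 genes was open in all lists. Its start region (chr3:48595101-48596365) had fold enrichments of 5.96 and 6.04 in the controls and 6.66 and 8.23 in DEK KO, with percentiles of 61.4, 71.8, 77.0 and 88.4. Both DEK KO values lay above both controls. COL6A1 and COL6A2 encode partner chains of the beaded filaments of collagen VI. COL6A2 was called in 3 lists, at percentiles of 35.0 in WT control replicate 1 and 50.9 and 52.7 in DEK KO, and was missing from WT control replicate 2. COL6A1 was called at 11.7 and 36.6 in the controls and 37.4 in DEK KO replicate 2, and was missing from DEK KO replicate 1. COL6A3, COL6A5 and COL6A6 were closed in all lists.

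Fibril-associated collagens were open in all lists in 4 of 10 genes and closed in all lists in the other 6. COL12A1 (chr6:75205443-75206322) had percentiles of 70.2 and 72.6 in the controls and 66.5 and 64.0 in DEK KO. COL14A1, a related chain, had percentiles of 68.8 and 76.7 in the controls and 58.3 and 56.2 in DEK KO. In both genes each DEK KO percentile lay below each control. COL9A3, a chain of cartilage collagen IX, showed the opposite order, with 33.5 and 36.5 in the controls and 52.9 and 46.9 in DEK KO. COL21A1 stood at 45.3 and 32.8 in the controls and 51.3 and 59.6 in DEK KO, where the genotypes did not overlap. Its fold enrichments did overlap, with 7.28 and 5.31 in the controls and 7.20 and 9.67 in DEK KO. The closed genes were COL9A1, COL9A2, COL16A1, COL19A1, COL20A1 and COL22A1.

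Among the transmembrane collagens, COL13A1 was open in all lists at percentiles of 51.7, 34.7, 47.7 and 48.7, with overlapping genotypes. COL17A1, a hemidesmosome component, had a peak at its start in WT control replicate 1 alone, and COL23A1 and COL25A1 had none. COL18A1 was the open gene among the 4 multiplexins and other collagens. Its downstream start (chr21:45455092-45455769) had percentiles of 57.8 and 50.8 in the controls and 44.6 and 46.8 in DEK KO. The region near its upstream start (chr21:45405912-45407189) had fold enrichments of 5.78 and 5.39 in the controls and 4.06 and 4.24 in DEK KO, and percentiles of 51.9, 50.6, 27.4 and 25.1. DEK KO replicate 1 had no peak within 1 kb of the upstream start, since its peak in that region lay further away. In both regions the DEK KO percentiles lay below the controls, and the gap was wider in the upstream one. Fold enrichments at the downstream start overlapped, with 6.47 and 5.17 in the controls and 4.60 and 5.83 in DEK KO. COL15A1, COL26A1 and COL28A1 were closed at their starts.

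**Figure D2:**
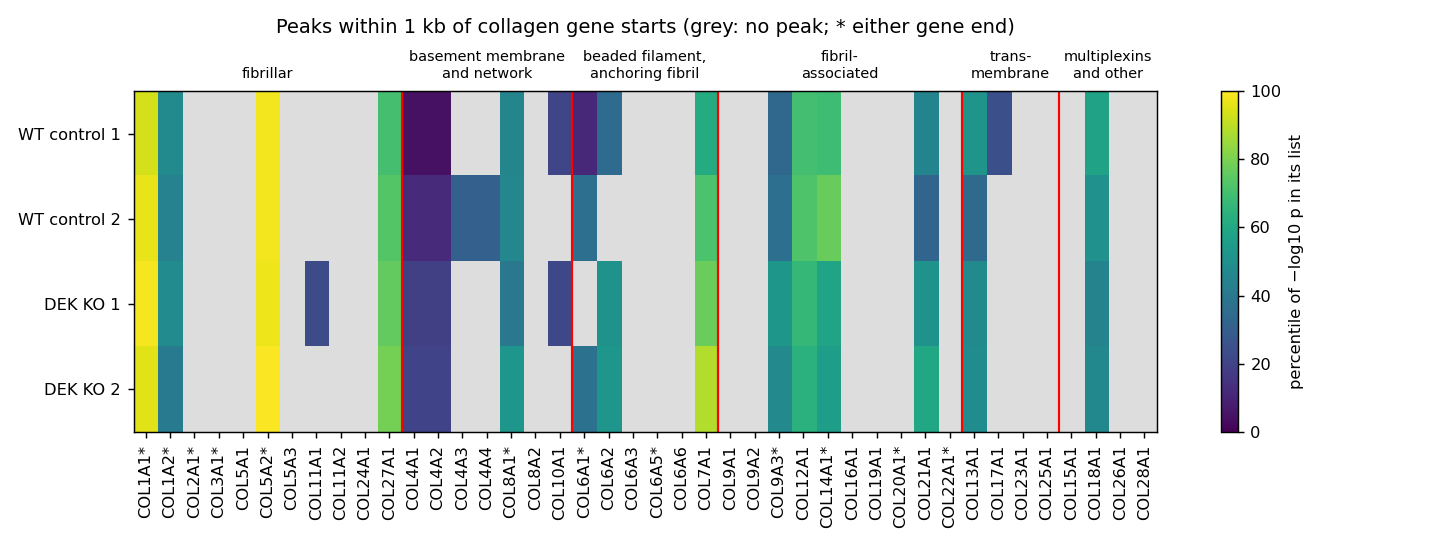
Percentile of −log10 p within its own list (colour, 0 to 100) of the strongest peak within 1 kb of each collagen gene's listed starts, or of either end for genes marked with an asterisk, in the 4 libraries (rows) and 42 genes by family (columns). Grey marks no peak; 14 columns are coloured in all 4 libraries, 7 in some and 21 in none.

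The number of open collagen starts was 18 and 17 in the controls and 17 and 16 in DEK KO (17.5 ± 0.707 against 16.5 ± 0.707, SD, n = 2 each). The genotypes overlapped (two-sided exact permutation p = 0.667; the smallest p that 2 against 2 allows is 0.333). Open ends were not limited to starts. The 3′ ends of COL7A1, COL9A2, COL10A1, COL11A2 and COL18A1 were also open in all 4 lists. That of COL7A1 lies beside the start of UCN2 and the end of PFKFB4. At the 3′ end of COL18A1 the percentiles were 18.1 and 21.4 in the controls and 36.3 and 43.4 in DEK KO, the reverse of the order at its starts.

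To compare genotypes at sites open in every library, each of the 62686 regions called in all 4 lists was ranked within each library by its −log10 p, from 0 for the weakest to 100 for the strongest. Ranks were turned into normal scores, tested with limma over all these regions, and adjusted by Benjamini-Hochberg. None of the 14 regions at collagen starts or unlisted ends passed an adjusted p of 0.05, and 2 had an unadjusted p under 0.05. The largest differences in rank were at COL14A1 and in the region near the upstream COL18A1 start. DEK KO replicate 1 had no peak within 1 kb of that COL18A1 start. COL14A1 had ranks of 56.1 and 66.6 in the controls and 35.7 and 35.9 in DEK KO, a mean difference of -25.5 (score difference -0.65, SE 0.250, limma adjusted p = 0.207). The region near the upstream COL18A1 start had ranks of 34.3 and 31.9 in the controls and 6.95 and 8.20 in DEK KO, also a mean difference of -25.5 (score difference -0.998, SE 0.243, limma adjusted p = 0.0821). In both, the groups did not overlap.

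COL7A1 had the largest positive difference in rank at a start. Its ranks were 46.2 and 59.6 in the controls and 62.7 and 81.7 in DEK KO, a mean difference of 19.3 (score difference 0.54, SE 0.291, limma adjusted p = 0.362). Leaving out DEK KO replicate 2 gave a score difference of 0.25, and leaving out DEK KO replicate 1 gave 0.83. COL12A1 differed by -13.0 (limma adjusted p = 0.515), the downstream COL18A1 start by -14.0 (limma adjusted p = 0.431) and COL21A1 by 13.3 (limma adjusted p = 0.462). COL9A3 differed by 11.2, COL1A2 by -5.11, COL27A1 by 3.95, COL8A1 by -3.54, the shared COL4A1 and COL4A2 region by 3.21, COL1A1 by 2.19, COL13A1 by 0.668 and COL5A2 by 0.253. These differences had both signs, and none passed the test.

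Over whole windows, 303 of the 653 collagen regions were called in all 4 lists (46.4%, against 45.3% of all regions). In 81 of the 303 (26.7%) both DEK KO ranks lay above both control ranks, against 24.3% of all such regions. In 75 (24.8%) both lay below, against 25.7%. With whole-list percentiles in place of ranks the counts were 97 above and 56 below, against the 31.1% and 19.2% of all such regions given above. The median difference was -0.551 rank units in collagen windows and -0.455 over all regions. The limma test called 1 collagen region, lower in DEK KO, where 1.08% of all regions were called (0.766% higher and 0.317% lower). The direction of the calls depended on the setting. Whole-list percentiles gave 4 higher and 1 lower, a −log10 q of at least 5 gave 2 higher and 0 lower, and leaving out WT control replicate 1 gave 1 higher and 0 lower. At an unadjusted p under 0.05 there were 56 collagen regions (18.5%, against 18.9%). The collagen shares lay near the background in both directions.

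The region that passed lies inside COL26A1 (chr7:101453356-101454293), 91.0 kb from the nearer gene end. COL26A1 encodes a collagen-domain protein of the extracellular matrix, and its own start was open in no list. The region's ranks were 88.1 and 83.2 in the controls and 43.0 and 29.0 in DEK KO, and its fold enrichments were 11.8, 10.2, 7.22 and 6.95. Both DEK KO libraries were below both controls on both scales (rank difference -49.7, score difference -1.44, SE 0.263, limma adjusted p = 0.0488). The limma adjusted p was no longer under the threshold when either control was left out (0.154 for replicate 1, 0.123 for replicate 2) or DEK KO replicate 2 (0.0954). The call was also lost when fold enrichment replaced −log10 p (0.0800) and with −log10 q of at least 5 in every list (0.0523). The call was kept with whole-list percentiles (0.0424), with the replicate block (0.0348) and without DEK KO replicate 1 (score difference -1.63). Another COL26A1 region (chr7:101401807-101402506) had ranks of 75.0 and 74.0 in the controls and 39.8 and 30.4 in DEK KO (limma adjusted p = 0.0787). Of the 8 regions of the COL26A1 window called in all lists, 2 ranked higher and 2 lower in both DEK KO libraries, against 24.3% and 25.7% of all such regions.

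**Figure D3:**
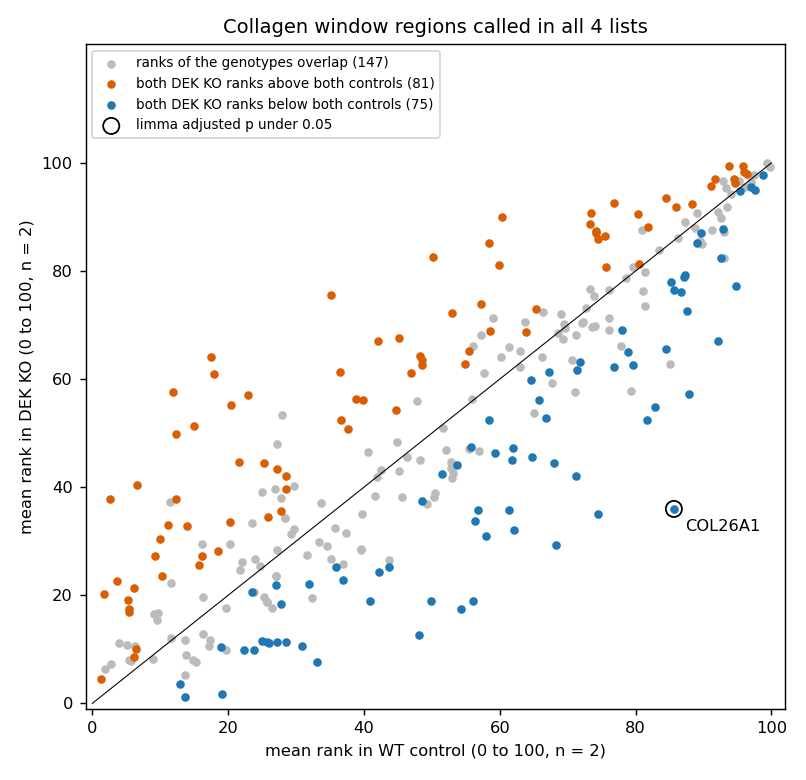
Mean rank of −log10 p (0 to 100) in the 2 WT control libraries (x axis) and the 2 DEK KO libraries (y axis) for the 303 collagen window regions called in all 4 lists; each point is a region, the line marks equal ranks, and the ring marks limma adjusted p under 0.05. Orange points (81) and blue points (75) have genotypes that do not overlap and lie on either side of the line; the ringed COL26A1 region is at 85.6 against 36.0.

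A few other intragenic regions came close to the threshold without passing it. Regions assigned to COL6A2 and COL13A1 did pass with whole-list percentiles, the replicate block, a −log10 q of at least 5 and without DEK KO replicate 1. A COL23A1 region passed with percentiles, with the block and without WT control replicate 1, and a COL8A1 region passed with the block and without DEK KO replicate 1. A region in COL6A2 (chr21:46121943-46122619) had ranks of 11.8 and 11.8 in the controls and 49.2 and 66.0 in DEK KO (limma adjusted p = 0.0507). In COL13A1, a region 62.3 kb from the gene end (chr10:69864159-69864821) had ranks of 7.36 and 5.76 in the controls and 45.8 and 35.1 in DEK KO (limma adjusted p = 0.0537). The genotypes were apart in both. COL13A1 also held a region with the opposite order, at 83.9 and 79.4 in the controls and 48.5 and 56.3 in DEK KO (chr10:69845694-69846317, limma adjusted p = 0.121). COL23A1 held a region at 5.00 and 0.294 in the controls and 46.5 and 29.2 in DEK KO (limma adjusted p = 0.0539). A region 1.66 kb inside COL8A1 (chr3:99640256-99640753) stood at 17.8 and 20.5 in the controls and 2.22 and 1.28 in DEK KO (limma adjusted p = 0.0537). Of the 11 regions of the COL13A1 window called in all lists, 3 ranked higher and 3 lower in both DEK KO libraries. The shares over all such regions were 24.3% and 25.7%.

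Some of the strongest open sites of collagen windows lay away from collagen starts. Of the 303 shared regions, 19 ranked above 90 in every library (6.27%, against 5.40% of all shared regions). Of these 19, 5 lay at a protein-coding gene end, against 45 of all 303 (14.9%). Another 7 of the 19 lay inside a collagen gene span away from any such end, against 162 of all 303 (53.5%). Places inside spans were thus not more frequent among the strongest regions. The highest of the 7 lay inside COL15A1 (chr9:98989081-98990189), 45.2 kb from the gene end, with ranks of 99.9, 98.7, 99.9 and 99.9, although the start of COL15A1 was closed. COL28A1, also closed at its start, held a region at 96.3, 92.9, 97.7 and 96.5. COL5A1, closed at its start, had regions 38.5 kb and 3.41 kb outside the gene, the former with ranks of 97.3, 95.7, 97.4 and 98.6. COL1A1 had a region 5.25 kb outside the gene at 98.2, 93.5, 99.2 and 99.7. Within COL4A2 a region 38.9 kb from the gene end stood at 95.2, 97.0, 96.0 and 95.1, far above the shared start region of COL4A1 and COL4A2. Regions in the flanks may belong to neighbouring genes.

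Regions called in 1 genotype only were next compared. A KO-only region was called in both DEK KO lists and neither control list, and a WT-only region the reverse. Collagen windows held 40 KO-only regions (6.13%, against 6.26% of all regions) and 18 WT-only regions (2.76%, against 2.57%). KO-only regions made up 69.0% of the 58 (95% exact binomial interval 55.5 to 80.5%, counting error only), and 70.9% over the genome. At least 1 KO-only region was found for 24 of the 42 genes (57.1%, against 41.2% of all genes) and at least 1 WT-only region for 15 (35.7%, against 20.1%). Collagen spans ran up to 494 kb, at COL25A1, whose window held 11 regions, while that of COL4A1, with a span of 158 kb, held 31. Whether span length bears on these shares was not tested. When the 4 lists were cut to equal length by −log10 p, the counts became 25 KO-only and 30 WT-only, and the KO-only share was 45.5% (56.6% over the genome). The excess of KO-only regions was thus not present in lists of equal length. With 1 library left out, a class needs fewer lists, and both counts grew. They were 69 and 67 or 59 and 36 when WT control replicate 1 or 2 was left out, and 91 and 42 or 96 and 31 when DEK KO replicate 1 or 2 was left out.

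Of the KO-only regions, 27 lay inside a collagen gene span and 13 in a flank, and 0 lay within 1 kb of an end of a protein-coding gene. Of the WT-only regions, 13 lay inside spans, 5 in flanks, and 1 at a gene end, that of HNRNPAB. Most were weak peaks. The lower of their 2 percentiles had a median of 17.8 in KO-only and 13.2 in WT-only regions, and it was above 50 in 2 KO-only regions and 1 WT-only region.

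By gene, KO-only regions numbered 7 at COL5A2, 3 each at COL15A1, COL21A1 and COL23A1, and 2 each at COL27A1, COL10A1, COL6A1, COL6A3 and COL18A1. The windows of COL1A2, COL3A1, COL4A2, COL4A3, COL5A1, COL8A1, COL9A1, COL9A3, COL12A1, COL13A1, COL14A1, COL16A1, COL17A1, COL20A1 and COL22A1 held 1 each. WT-only regions numbered 2 each at COL21A1, COL23A1 and COL24A1. The windows of COL4A1, COL4A2, COL5A3, COL8A1, COL9A2, COL11A2, COL14A1, COL16A1, COL17A1, COL19A1, COL25A1 and COL27A1 held 1 each. Both classes were present at 8 genes and neither at 11. By family, 11 KO-only and 5 WT-only regions were among 159 regions at fibrillar collagens, and 10 and 6 among 147 at fibril-associated collagens. Beaded filament and anchoring fibril collagens had 4 and 0 of 53, and the multiplexins and other collagens had 5 and 0 of 75. Basement membrane and network collagens had 5 and 3 of 136, and transmembrane collagens had 5 and 4 of 83. The shares over all regions were 6.26% and 2.57%, so a WT-only count of 0 is not read as a trait of a family.

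The 2 KO-only regions above percentile 50 in both DEK KO lists lay deep inside fibril-associated collagens. In COL14A1 the region, 114.7 kb from the nearer gene end, had fold enrichments of 8.36 and 10.3 in the DEK KO libraries and percentiles of 64.5 and 65.1. The start of the same gene had lower percentiles in DEK KO than in the controls. In COL21A1 the region (chr6:56199586-56200437) had fold enrichments of 7.54 and 10.4 and percentiles of 54.0 and 63.0. The next by strength lay 11.7 kb outside COL1A2 (chr7:94382362-94383159), with fold enrichments of 6.86 and 12.9. On the WT-only side the strongest lay in the flank of COL9A2, inside ZMPSTE24 (chr1:40273664-40274197), with fold enrichments of 8.72 and 6.71. COL24A1 had 2 WT-only regions inside the gene, at fold enrichments of 6.97 and 6.49 and of 5.38 and 5.31 in the controls, and 0 KO-only regions. COL15A1 had 3 KO-only and 0 WT-only regions.

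**Figure D4:**
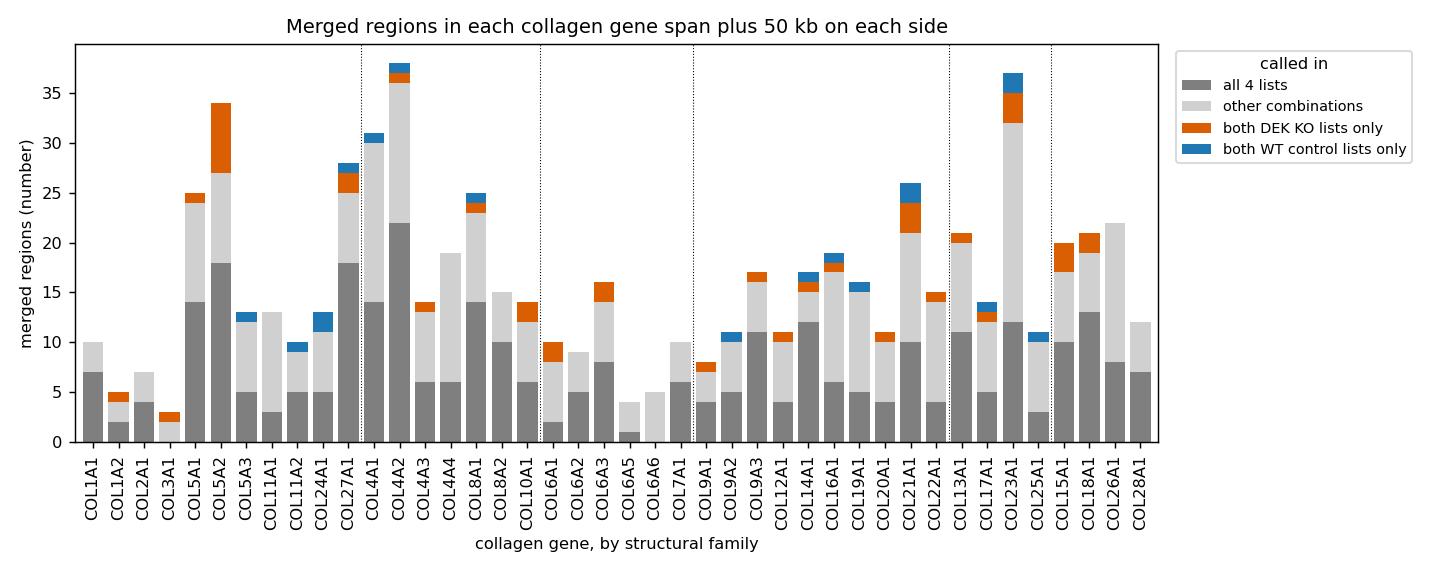
Number of merged regions (y axis) in the span plus 50 kb of each collagen gene (x axis, by family, dotted lines between families), stacked by the lists that called them. COL5A2 has the most KO-only regions, 7, and its bar has no WT-only segment.

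COL5A2 had the most KO-only regions of the 42 genes. Its window of 34 regions held 18 regions called in all lists, 7 KO-only regions and 0 WT-only regions. At least 7 KO-only regions were found for 0.131% of all protein-coding genes (25 of 19122). The listed span of COL5A2 is 409 kb, among the longest of the collagen genes, and COL24A1 and COL25A1, which are longer, had 0 KO-only regions. Of the 7, 6 lay inside the listed COL5A2 span and 1 lay in the flank, inside its neighbour COL3A1 (chr2:189002177-189002520). No start is listed for COL5A2, and its listed span reaches the start of WDR75. Starts of COL5A2 inside the span were not examined, so regions inside the span may lie upstream of a start in use. The COL3A1 region had fold enrichments of 6.17 (DEK KO replicate 1) and 6.21 (DEK KO replicate 2). The strongest inside the listed COL5A2 span (chr2:189403032-189403431) had 5.43 and 5.86, at percentiles of 35.9 and 35.3. The others inside the span were weaker, with lower percentiles down to 2.86.

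The peak counts of the COL5A2 window were 23 and 25 in the controls and 30 and 30 in DEK KO. In the 18 regions called in all lists, 4 ranked higher and 7 lower in both DEK KO libraries, with a median rank difference of -6.31. Over all regions called in the 4 lists, 24.3% ranked higher and 25.7% lower. With lists cut to equal length, COL5A2 had 5 KO-only and 3 WT-only regions. Leaving out DEK KO replicate 1 gave 8 and 3. COL5A2 was named because of its count, which was known from these data, so no test was made.

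**Figure D5:**
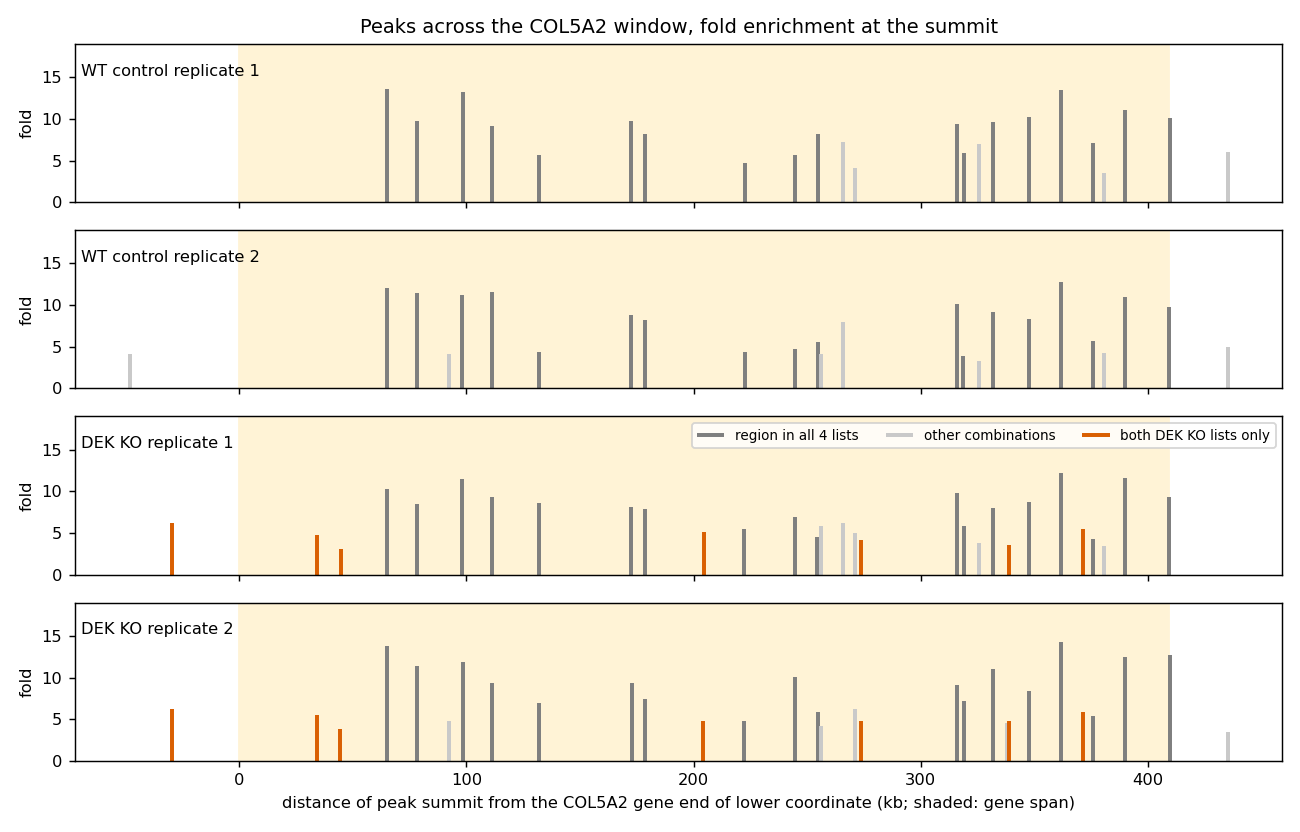
Fold enrichment at the summit (y axis) of each peak in the COL5A2 window by distance from the gene end of lower coordinate (x axis, kb; the gene span is shaded), 1 panel per library. Orange lines mark the 7 KO-only regions, 1 of them outside the span, all lower than the tallest dark grey lines, which mark regions called in all 4 lists.

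Over all collagen windows the number of peaks was 422 and 446 in the controls and 489 and 477 in DEK KO (434 ± 17.0 against 483 ± 8.49, SD, n = 2 each). The groups did not overlap, and the two-sided exact permutation p = 0.333 is the smallest possible with 2 against 2. As a share of each list the values were 0.471% and 0.493% against 0.476% and 0.479%, which overlapped (exact permutation p = 1). Covered length was 285 and 306 kb in the controls and 322 and 297 kb in DEK KO (exact permutation p = 0.667). The collagen share of the 2 genotypes' lists differed by less than the spread between the controls.

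Genes that act on collagen were read the same way from lists of known function. Of 18 enzymes and chaperones that modify or fold collagen, 16 had starts open in all 4 lists, against 59.9% of all protein-coding genes and 14 of the 42 collagen genes themselves. The other lists below are read against the same 59.9%. P4HB, a subunit of prolyl 4-hydroxylase and protein disulfide isomerase, had percentiles of 98.4 and 93.9 in the controls and 92.7 and 98.9 in DEK KO. SERPINH1, the collagen chaperone HSP47, had 62.5 and 65.0 in the controls and 46.1 and 62.5 in DEK KO. P4HA3 and COLGALT2 were closed. Of 13 genes for procollagen cleavage and crosslinking, 7 were open in all lists, 4 in some and 2 (PCOLCE and ADAMTS2, a procollagen N-proteinase) in none. LOXL4, a lysyl oxidase, had a region near its start with percentiles of 88.6 and 88.6 in the controls and 74.0 and 72.9 in DEK KO (limma adjusted p = 0.137). Of 10 collagen receptors, 6 were open in all lists, including DDR1, ITGA1, ITGA2 and ITGB1, and DDR2 and LAIR1 in none.

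Of 10 genes for collagen degradation, 2 were open in all lists (MMP10 and MMP14), 5 in some and 3 in none. MMP3 and MMP13, a stromelysin and a collagenase, each had a KO-only region at a gene end, at percentiles of 26.1 and 0.45 for MMP3 and 41.8 and 29.9 for MMP13 in DEK KO replicates 1 and 2. Among all protein-coding genes 1.33% had a KO-only region within 1 kb of a start or unlisted end, and 0.884% had a WT-only one. FKBP10, which folds procollagen, had a WT-only region at a gene end beside a region open in all lists. The limma test called 0 start regions in each of these 4 lists, where 1.08% of all shared regions were called.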

How the data were processed

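Each library has its own deposited narrowPeak list, which shows that the authors called peaks library by library rather than on pooled reads. Tools named in the submitters' processing notes are MACS2 2.2.7.1, Bowtie2 2.2.5, cutadapt 1.18, Picard 2.26.9, SAMtools 1.7, ChIPseeker 1.32.1, DiffBind 3.6.5 and deepTools 3.5.1. No settings come with them. The notes name hg38 and GRCh38 as the build. A shift of reads for the transposase is not mentioned in the sources used here, and the labels' library text describes RNA, so the making of the ATAC libraries is not given either. In each deposited list the fold column is the ratio of pileup to background at a summit, p and q are given as −log10 values, and the score is a scaled −log10 q, all as the authors' peak caller wrote them. The last deposited column holds the summit offset. Between 135 and 167 peaks per list lay on other sequences and were left out.

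Peaks were merged across lists at an overlap of at least 1 bp. Gene positions and promoters came from RefSeq tables of GRCh38.p14, and all 42 genes matched. Regions in all 4 lists were ranked by −log10 p, turned to normal scores and tested, 2 against 2 without a block, with limma 3.58.1 in R 4.3.3 and Benjamini-Hochberg adjustment over all 62686 regions. Library totals were tested with two-sided exact permutation tests. Other steps used Python 3.11.15, numpy 2.4.6, pandas 2.3.3 and scipy 1.17.1. The test was checked on simulated data, whose noise was pooled over regions of like level, so that check says nothing of power here. The labels do not say whether replicate numbers pair the samples. Replicate 1 minus 2 differences correlated at 0.0163 between groups, which cannot show how the samples were prepared.

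Genes were named where a window held a one-genotype region, where a start was called in 1 to 3 lists, among the 10 largest rank differences at a start, as the highest-ranked start of a family, and, in the other lists, for a one-genotype or limma-called start. Other intragenic and flank regions, and enzymes and receptors with open or closed starts, were named after their values were seen. Members, families and lists were chosen with earlier results of these data known. Alternatives were equal list lengths, a −log10 q of at least 5, other overlaps, windows and start distances, fold or whole-list percentiles in place of ranks, a replicate block, and leaving out each library.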

Additional observations from a re-analysis of the deposited data

How the results depend on the processing

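With lists cut to equal length, KO-only and WT-only collagen regions numbered 25 and 30, the KO-only share was 45.5%, and the knockout minus control differences reversed to -6 peaks and -6.72 kb of covered length. With −log10 q of at least 5 the difference in open starts was 0, and within 250 bp of a start 8 genes were open in every list. Collagen regions past the limma threshold numbered 0 with fold enrichment, 5 with whole-list percentiles, 2 with −log10 q of at least 5 in every list, and 5 with the replicate block, where 3 lay higher and 2 lower and 2.54% of all regions were called. For the replicates the labels give only a number, so the block was left out of the main fit. Leaving out each library in turn gave 59 to 96 KO-only regions, 31 to 67 WT-only regions, a KO-only share of 50.7 to 75.6% and 0 to 5 regions past the limma threshold. It also gave 106 to 127 regions with knockout ranks above control ranks and 110 to 133 below. Of the results that answer a comparison, 53 values under an alternative kept their direction and stayed near the reported value, 23 moved and 2 reversed. The COL26A1 region kept its direction in all 8 alternatives, with limma adjusted p from 0.0315 to 0.154. Peak lists hold no counts, so what depth limits was not measured, and a peak missing from a list is not shown to be closed chromatin.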
